A study of Mus musculus with 27 samples.

Results

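The genes described here are 35 mouse genes whose proteins drive mitosis: the cyclins and kinases of mitotic entry, centromere and checkpoint proteins, the machinery that ends metaphase, spindle proteins, cytokinesis proteins and chromosome proteins. They were chosen with earlier results of these data known. They were taken by gene symbol from a count table of 20446 genes, and all 35 were found there. All 35 also had enough reads to be tested, among 12687 genes tested in all. The counts come from C2C12, an established line of mouse myoblasts whose cells fuse into multinucleated myotubes in low serum. Cultures differentiated in medium with 2% horse serum were exposed for 2 h to 50% horse serum, a shock that sets the circadian clocks of the cells to one phase. Ribosome-depleted total RNA was sequenced in 3 libraries at each of 9 time points, labelled 12, 18, 24, 30, 36, 42, 48, 54 and 60 h (27 libraries in all). By the labels, all groups are therefore the same line, medium and pulse, and differ by hour. Other things that go with the hour, such as time in culture, cannot be told apart from it.

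Transcripts of mitotic genes are made in waves in dividing cells. They are low in G1, are released from repression by the DREAM complex, and are switched on in G2 by B-MYB and FOXM1. These factors act through CHR elements near the start site, and CCAAT boxes are also found there in such genes. Myotube nuclei have left the cell cycle for good, but C2C12 cultures also keep mononucleated cells that did not fuse, and serum can send such cells back into division. In bulk RNA, fewer cells of a type and less RNA per cell cannot be told apart.

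Depth was 15.2 to 26.6 M counted reads a library. Nothing in the labels ties the 3 libraries of a time point to separate cultures, and every p-value here thus reflects a spread between libraries that may be technical. All 20 markers of the labelled cell type, myotubes, were detected, among them skeletal actin Acta1 at a mean of 4153 CPM (counts scaled to library size) and embryonic myosin Myh3 at 3048 CPM. Genes used as markers of unfused cells were detected too, with Myod1 at 84.8 CPM, Myf5 at 28.8 CPM and Pax7 at 1.37 CPM. These levels do not measure the share of unfused cells. Of 6 immune markers, Cd68 (1.03 CPM) and Itgam (0.548 CPM) had enough reads to be tested, while Ptprc was at 0.0328 CPM and Cd3e at 0. Genes used as markers of fibroblasts and smooth muscle were abundant, with Col3a1 at 7553 CPM and Acta2 at 3841 CPM, but Thy1 was at 0, Lum at 0.116 CPM and Myh11 at 0.188 CPM. Exons of 11 members overlap exons of another gene on the opposite strand (Ube2c those of the abundant muscle gene Tnnc2, for example), and Ccnb1 and Ccnb2 have named pseudogenes. Whether counting used the strand is not given in the sources used here, so such reads cannot be told apart.

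The mitotic genes moved together early in the course. From 12 h to 18 h, 29 of the 35 rose and none fell (edgeR quasi-likelihood test, p adjusted by Benjamini-Hochberg over the 12687 genes, threshold 0.05), against 2.78% of all tested genes called up at this step. The median change of the 35 was 0.73 on the log2 scale, against 0.01 over all genes. As a ratio of means, 18 h over 12 h ran from 1.12 (Ncapd2) to 2.10 (Cenpf), with a median of 1.65. In 30 members every 18 h library lay above every 12 h library, a separation found in 7.92% of all genes. In 22 members every 12 h library lay under all 24 later libraries, as in 3.2% of all genes. Of the 35, 31 had their highest mean at 18 h and 27 their lowest at 12 h, and for all genes these shares were 10.4% and 24.7%. From 18 h the levels came down to a second low at 30 h, returned by 36 h to a level between those of 12 h and 18 h, and stayed near it to 60 h. A change of some shape over the course was called for 29 of 35, against 18.4% of all genes.

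**Figure D1:**
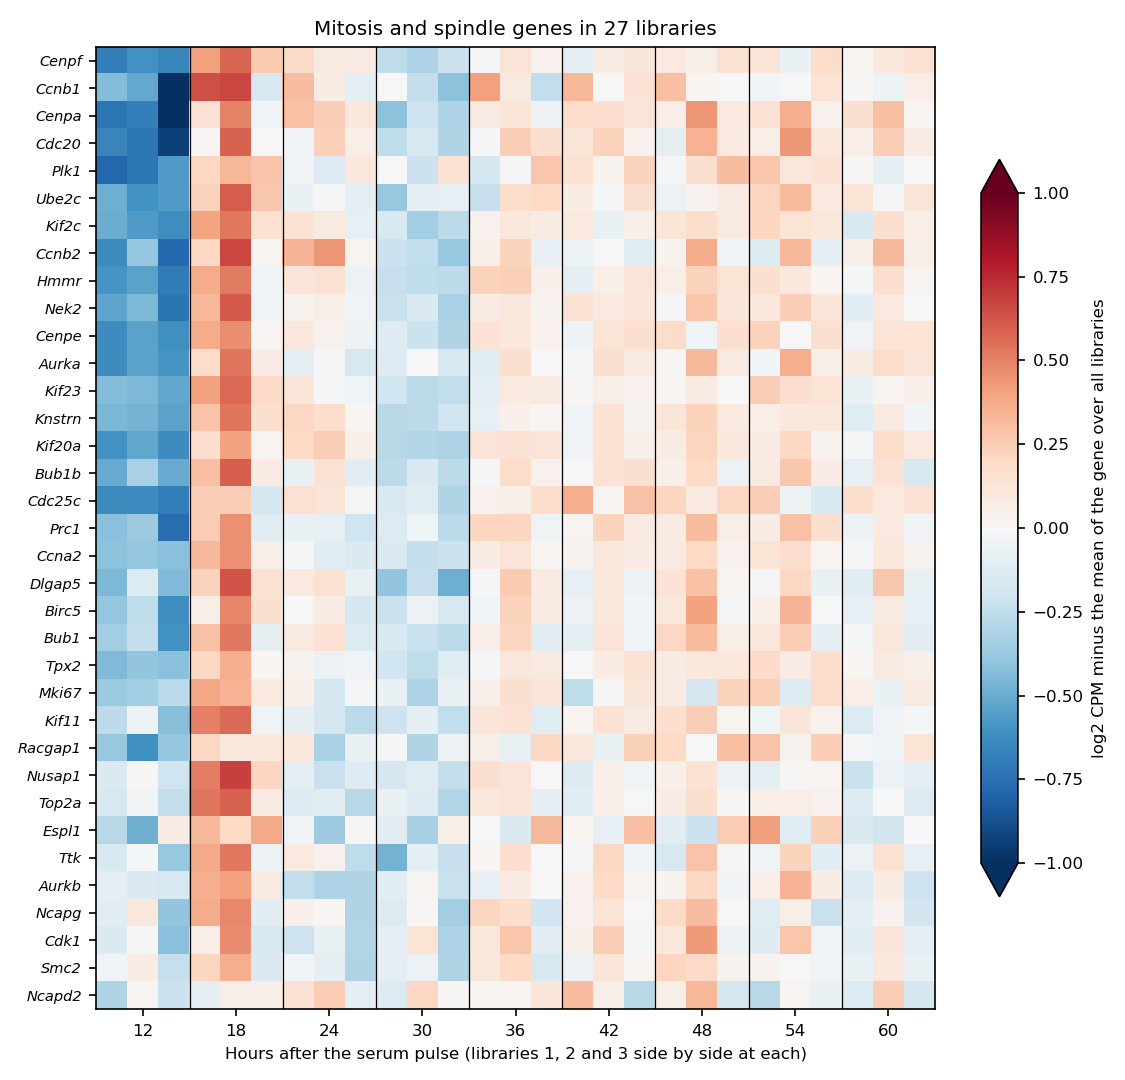
Level of each of the 35 genes in each of the 27 libraries, as log2 CPM minus the mean of that gene over all libraries; genes are ordered by their change from 12 h to 18 h and libraries by hour and number. The 12 h libraries are blue in most rows, library 2 of 18 h is the reddest column, and a second, fainter blue band lies at 30 h.

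Cyclins and kinases of mitotic entry come first in the division cycle. Ccna2 encodes cyclin A2, which carries cells through S phase into mitosis, and its CPM in libraries 1, 2 and 3 was 89.2, 90.8 and 88.8 at 12 h, 149, 163 and 124 at 18 h, 117, 109.8 and 108 at 24 h, 108, 101 and 102 at 30 h, 125, 130.1 and 120.3 at 36 h, 122, 128 and 125 at 42 h, 126, 136 and 122 at 48 h, 130.3, 133 and 120.4 at 54 h, and 118, 128 and 122 at 60 h. Values of 3 libraries are given in this order throughout. All 12 h libraries lay under all others, and the 18 h libraries were the widest apart, with library 2 the highest. Ccna2 rose by 0.70 log2 from 12 h to 18 h (SE 0.07, edgeR adjusted p = 1.82e-06) and fell by 0.38 from 18 h to 24 h (adjusted p = 0.00405). Plk1, the polo kinase that acts from centrosome maturation to cytokinesis, had a CPM of 13.9, 14.5 and 16.2 at 12 h, 27.6, 30.2 and 29.2 at 18 h, 23.4, 21.9 and 25.7 at 24 h, 23.8, 20.7 and 26.5 at 30 h, 21.2, 23.7 and 29.0 at 36 h, 26.6, 24.6 and 28.1 at 42 h, 23.7, 26.8 and 29.6 at 48 h, 29.1, 25.9 and 26.5 at 54 h, and 24.2, 22.6 and 24.1 at 60 h. No library after 12 h came down to the 12 h values. The step to 18 h was 0.97 log2 (SE 0.11, adjusted p = 5.67e-06).

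Ccnb1 and Ccnb2 encode the B cyclins, which activate the kinase CDK1 at the onset of mitosis. Ccnb1 (ENSMUSG00000041431; mm10 chromosome 13, 100778650 to 100786570) was at 17.3, 16.5 and 11.3 CPM in the 12 h libraries, 36.7, 37.1 and 20.9 at 18 h and 23.6, 19.8 and 17.7 at 30 h. Library 3 was far under the other two at 18 h, and Ccnb1 had the widest error of the 35 (log2 1.07, SE 0.19, adjusted p = 9.66e-04). Ccnb2 went from 29.5, 35.1 and 26.7 CPM at 12 h to 53.1, 72.9 and 46.5 at 18 h and 58.0, 62.2 and 46.7 at 24 h, then to 39.5, 38.8 and 35.2 at 30 h. Its 24 h libraries overlapped those at 18 h and all lay above those at 30 h, though the step from 24 h to 30 h (log2 -0.56) had an adjusted p of 0.126.

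The other entry genes were all higher on average at 18 h. Cdc25c, the phosphatase that removes the inhibitory phosphates of CDK1, had the lowest level per length of the 35 and stood at 6.47, 6.46 and 6.23 CPM at 12 h and 11.9, 11.9 and 8.97 at 18 h. Aurka, a centrosome kinase, stood at 24.6, 26.3 and 25.3 CPM and 43.3, 55.1 and 40.2 CPM at these hours. Nek2, a kinase that loosens the link between centrosomes, stood at 28.1, 29.7 and 24.5 CPM and 51.1, 62.2 and 39.4 CPM. The 3 genes rose by 0.78, 0.86 and 0.89 log2, and none had overlapping libraries. Cdk1, which encodes the kinase itself, gave 89.3, 97.8 and 74.0 CPM at 12 h and 104, 138 and 88.7 at 18 h. These values overlapped, and neither this step (log2 0.34, SE 0.16, adjusted p = 0.325) nor the whole course (adjusted p = 0.51) was called. Whether Cdk1 differed from the others was not tested. Of the 8 entry genes, 7 rose from 12 h to 18 h.

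Centromere and checkpoint genes held the member with the strongest test. Cenpf (ENSMUSG00000026605; mm10 chromosome 1, 189640606 to 189688086) encodes a large kinetochore protein that accumulates in G2, and its CPM was 65.6, 69.1 and 67.0 at 12 h, 139.5, 158 and 126 at 18 h, 120.0, 112 and 111 at 24 h, 88.4, 84.9 and 90.5 at 30 h, 104, 115 and 109 at 36 h, 98.7, 111 and 115 at 42 h, 113, 109.6 and 117 at 48 h, 115, 101 and 119.5 at 54 h, and 107, 113 and 117 at 60 h. The 12 h libraries were close together and under all 24 others, those at 18 h were all above the rest, and those at 30 h formed a second low. Cenpf rose by 1.07 log2 (SE 0.08, adjusted p = 1.4e-08), and was the single member called at both following steps, with falls of 0.30 to 24 h (adjusted p = 0.0423) and 0.38 to 30 h (adjusted p = 0.0152). Cenpe, the kinesin that carries chromosomes to the metaphase plate, had a CPM of 52.9, 56.4 and 53.5 at 12 h, 106, 113 and 82.8 at 18 h, 88.0, 84.1 and 78.7 at 24 h, 74.6, 70.4 and 66.4 at 30 h, 90.1, 88.2 and 84.3 at 36 h, 78.9, 90.0 and 91.9 at 42 h, 93.0, 79.2 and 91.6 at 48 h, 95.8, 81.5 and 91.3 at 54 h, and 79.7, 89.6 and 89.7 at 60 h. Here too the 12 h libraries were the lowest of all, and the step to 18 h was 0.89 log2 (SE 0.10, adjusted p = 2.4e-06).

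Cenpa encodes the histone H3 variant that marks centromeres. Its levels were 18.1, 18.6 and 13.0 CPM at 12 h, 32.8, 42.0 and 29.3 at 18 h, 36.6, 35.2 and 32.1 at 24 h, 22.4, 25.7 and 24.1 at 30 h and 33.2, 36.7 and 30.1 at 60 h. The 24 h libraries overlapped those at 18 h, and of the 35 genes Cenpa ended the farthest above its 12 h level. The checkpoint kinase Bub1 went from 31.8, 34.3 and 26.7 CPM at 12 h to 49.7, 58.2 and 37.8 at 18 h. Bub1b, which encodes the checkpoint protein BUBR1, went from 47.7, 54.0 and 47.6 CPM to 83.2, 102 and 71.6 CPM. Both rose without overlap, by 0.65 and 0.79 log2 (adjusted p = 0.00255 and 6.63e-05).

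Aurkb and Birc5 encode the kinase and the survivin subunit of the chromosomal passenger complex, which corrects faulty attachments of chromosomes to the spindle. Birc5 rose from 29.7, 32.5 and 25.2 CPM at 12 h to 40.4, 54.3 and 43.4 CPM at 18 h, a change of 0.66 log2 (adjusted p = 0.00146). Aurkb gave 28.8, 27.9 and 27.6 CPM at 12 h, 39.7, 40.8 and 32.8 at 18 h, 26.01, 24.9 and 24.97 at 24 h and 28.4, 31.5 and 26.4 at 30 h. Its rise was short: a gain of 0.43 log2 (adjusted p = 0.0084) was followed by a fall of 0.58 (adjusted p = 0.0011), and all 24 h libraries were under all 12 h libraries. Ttk, the kinase that starts the checkpoint signal, had overlapping libraries at 12 h (22.3, 24.5 and 19.0 CPM) and 18 h (32.2, 35.5 and 23.9 CPM) and was not called (log2 0.48, adjusted p = 0.0591). Of this group, 7 of 8 rose from 12 h to 18 h.

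Exit from metaphase needs the anaphase-promoting complex, a ubiquitin ligase that marks cyclin B and securin for destruction. Cdc20 (ENSMUSG00000006398; mm10 chromosome 4, 118432901 to 118437352), the activator of that complex, had a CPM of 35.2, 33.7 and 29.2 at 12 h, 56.1, 83.8 and 55.5 at 18 h, 54.7, 65.6 and 58.2 at 24 h, 46.6, 50.1 and 45.2 at 30 h, 55.3, 66.0 and 62.3 at 36 h, 60.8, 65.2 and 57.4 at 42 h, 52.4, 70.7 and 59.4 at 48 h, 58.2, 75.3 and 59.9 at 54 h, and 58.3, 65.9 and 59.1 at 60 h. Library 2 was the highest of the 18 h libraries by a wide margin, and the 12 h libraries were under all others. The change to 18 h was 0.99 log2 (SE 0.14, adjusted p = 6.27e-05). Ube2c, the ubiquitin-conjugating enzyme of the complex, had a CPM of 24.99, 23.0 and 23.6 at 12 h, 41.1, 53.2 and 42.1 at 18 h, 33.4, 34.6 and 32.8 at 24 h, 26.9, 32.8 and 33.0 at 30 h, 29.8, 39.5 and 40.3 at 36 h, 36.8, 34.7 and 39.1 at 42 h, 33.5, 35.8 and 37.0 at 48 h, 40.6, 43.5 and 37.4 at 54 h, and 38.4, 34.5 and 38.3 at 60 h. It rose by 0.93 log2 (SE 0.11, adjusted p = 8.7e-06) and fell by 0.44 to 24 h (adjusted p = 0.0366). Tnnc2, whose exons overlap those of Ube2c, was not among the genes called from 12 h to 18 h. Espl1, the separase that cuts cohesin between sister chromatids, gave 20.4, 17.6 and 26.1 CPM at 12 h and 30.9, 28.3 and 32.1 at 18 h. Its libraries did not overlap at these hours, but the step had an adjusted p of 0.0847 (log2 0.51, SE 0.16).

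Every one of the 7 spindle proteins rose from 12 h to 18 h, by 0.59 to 0.92 log2. Kif2c encodes MCAK, a kinesin that takes microtubules apart at the centromere, and its CPM was 30.4, 28.9 and 27.9 at 12 h, 56.3, 61.7 and 47.5 at 18 h, 47.4, 45.5 and 40.4 at 24 h, 38.3, 33.9 and 35.6 at 30 h, 44.0, 46.2 and 45.1 at 36 h, 45.8, 40.8 and 44.2 at 42 h, 46.7, 48.2 and 45.5 at 48 h, 49.6, 47.2 and 46.3 at 54 h, and 38.5, 47.7 and 44.7 at 60 h. All 3 libraries at 30 h were under all at 24 h and 36 h and over all at 12 h. The first step was 0.92 log2 (SE 0.09, adjusted p = 6.77e-07). Knstrn encodes kinastrin, which joins kinetochores to dynamic microtubule ends, and its CPM was 32.1, 31.6 and 30.3 at 12 h, 53.5, 63.6 and 49.1 at 18 h, 50.8, 49.8 and 44.6 at 24 h, 36.3, 36.7 and 38.4 at 30 h, 41.6, 45.6 and 44.6 at 36 h, 42.9, 48.6 and 45.1 at 42 h, 48.0, 51.7 and 47.2 at 48 h, 46.1, 47.4 and 47.3 at 54 h, and 40.5, 46.9 and 43.2 at 60 h. The same 2 lows, at 12 h and at 30 h, stood apart in every library. Knstrn rose by 0.82 log2 (SE 0.08, adjusted p = 1e-06), and its fall came from 24 h to 30 h (-0.38, adjusted p = 0.0245).

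Nusap1 and Kif11 rose to 18 h and fell by 24 h. Nusap1 encodes a protein that stabilises microtubules near chromosomes, and its levels were 42.8, 47.8 and 41.3 CPM at 12 h, 67.7, 76.1 and 55.1 at 18 h and 44.2, 40.7 and 43.4 at 24 h. All its 18 h libraries were above all 24 h libraries, and the 24 h and 12 h libraries overlapped. The rise was 0.59 log2 (adjusted p = 1.91e-04) and the fall -0.63 (adjusted p = 2.52e-04). Kif11, the kinesin that pushes the spindle poles apart, gave 61.7, 71.6 and 55.2 CPM at 12 h, 105, 109.8 and 72.3 at 18 h and 69.7, 65.6 and 61.2 at 24 h. Its rise of 0.61 log2 (adjusted p = 0.00179) was likewise followed by a fall, of 0.55 log2 (adjusted p = 0.0111).

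Tpx2, which seeds microtubules around chromosomes, was at 69.8, 72.3 and 71.2 CPM at 12 h and 109, 122 and 96.4 at 18 h. Hmmr, a spindle pole protein that binds TPX2, went from 39.0, 40.6 and 36.2 CPM to 76.1, 84.4 and 57.8 CPM. Dlgap5, which encodes the microtubule bundler HURP, went from 31.5, 39.0 and 31.5 CPM to 50.5, 66.5 and 47.7 CPM. The changes were 0.62, 0.91 and 0.69 log2, with adjusted p = 3e-06, 3.88e-06 and 0.00131, and in all 3 genes the 18 h libraries were above those at 12 h.

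All 4 genes of the spindle midzone and cytokinesis rose from 12 h to 18 h, and all 4 were still above 12 h at 60 h. Kif20a, the kinesin that moves the passenger complex to the midzone, had a CPM of 81.6, 86.4 and 80.3 at 12 h, 139, 164 and 126 at 18 h, 142, 147 and 129 at 24 h, 102, 101 and 100.1 at 30 h, 136, 137 and 136 at 36 h, 121, 137 and 128 at 42 h, 130.4, 144 and 133 at 48 h, 132, 143 and 127 at 54 h, and 123, 140.3 and 133 at 60 h. Its 30 h libraries were close together and lay under all those at 24 h and 36 h. Kif20a rose by 0.79 log2 (SE 0.08, adjusted p = 1.12e-06), fell by 0.46 from 24 h to 30 h (adjusted p = 0.00327) and rose again by 0.43 to 36 h (adjusted p = 0.0168), the single gain called in the 35 at that step.

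Kif23 and Racgap1 encode the 2 subunits of centralspindlin, which positions the cleavage furrow. Kif23 CPM was 36.1, 35.8 and 34.1 at 12 h, 64.5, 72.2 and 55.8 at 18 h, 53.0, 48.1 and 47.4 at 24 h, 42.6, 40.5 and 41.0 at 30 h, 45.6, 52.2 and 51.9 at 36 h, 49.1, 50.7 and 50.2 at 42 h, 49.5, 51.6 and 48.9 at 48 h, 57.9, 54.9 and 53.7 at 54 h, and 46.6, 49.8 and 50.4 at 60 h. Low values at 12 h and 30 h and a peak at 18 h were seen in every library. It rose by 0.86 log2 (SE 0.08, adjusted p = 1.8e-07) and fell by 0.37 to 24 h (adjusted p = 0.00757). Racgap1 gave 89.6, 76.2 and 89.3 CPM at 12 h, 134, 126 and 125 at 18 h and 142, 119.5 and 138 at 54 h, where its mean was highest. Prc1, which bundles the antiparallel microtubules of the midzone, gave 78.7, 82.1 and 62.1 CPM at 12 h and 126, 145 and 97.7 at 18 h. These genes rose by 0.60 and 0.73 log2 (adjusted p = 0.00137 and 3.76e-04), with no overlap in either.

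**Figure D2:**
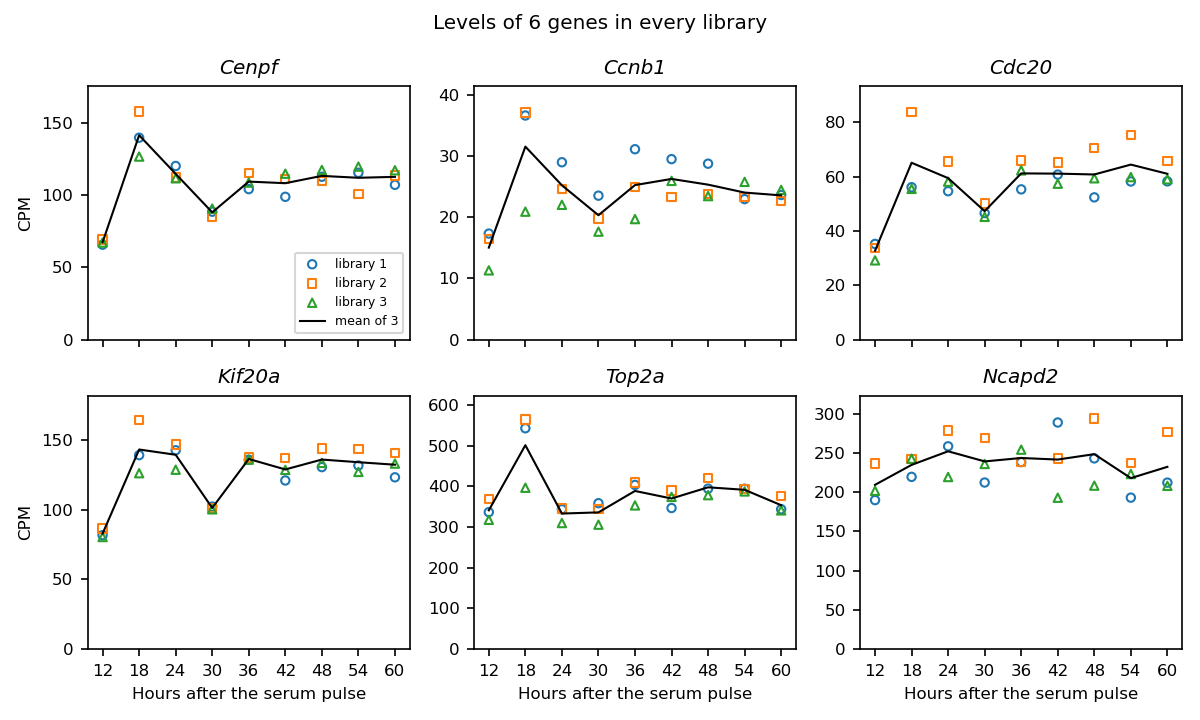
CPM (vertical axis, from 0) of 6 genes in every library against the hour after the pulse; symbols mark library numbers 1, 2 and 3 and the line joins the means of 3. Cenpf, Ccnb1, Cdc20 and Kif20a are lowest at 12 h and have a second low at 30 h, Top2a peaks at 18 h alone, and the values of Ncapd2 overlap at every pair of neighbouring hours.

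Of the 5 chromosome structure genes, 2 were called from 12 h to 18 h. Top2a (ENSMUSG00000020914; mm10 chromosome 11, 98992943 to 99024189) encodes topoisomerase II alpha, which untangles sister DNAs, and had the highest level per length of the 35 (42.1 CPM per kilobase of exon). Its CPM was 336, 369 and 318 at 12 h, 543, 564 and 396 at 18 h, 344, 346 and 309.7 at 24 h, 358, 344 and 306 at 30 h, 403, 409 and 353 at 36 h, 347, 389 and 374 at 42 h, 394, 420.1 and 378 at 48 h, 394, 393 and 387 at 54 h, and 344, 376 and 341 at 60 h. All 18 h libraries were above all those at 12 h and 24 h, and the values at 12, 24 and 30 h overlapped. Top2a rose by 0.56 log2 (SE 0.10, adjusted p = 8.42e-04) and fell by 0.59 to 24 h (adjusted p = 0.00108). Mki67 encodes Ki-67, the coat protein of mitotic chromosomes used as a marker of cycling cells, and had a CPM of 161, 164 and 172 at 12 h, 271, 264 and 222 at 18 h, 215, 184 and 206 at 24 h, 198, 167 and 197 at 30 h, 215, 232 and 227 at 36 h, 174, 205 and 226 at 42 h, 219.9, 185 and 244 at 48 h, 245, 190.2 and 235 at 54 h, and 217, 199 and 221 at 60 h. It rose by 0.61 log2 (SE 0.11, adjusted p = 9.51e-04), and its later values overlapped widely.

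The condensin subunits Smc2, Ncapg and Ncapd2, which compact mitotic chromosomes, were not called at any step. Smc2 gave 116, 126 and 102 CPM at 12 h and 139, 154 and 108 at 18 h. Ncapg gave 45.8, 53.5 and 37.6 CPM and 63.7, 68.7 and 45.6 CPM. Ncapd2 gave 189.9, 237 and 202 CPM and 219.5, 242 and 243 CPM. The libraries overlapped in all 3, and the log2 changes were 0.22 (SE 0.11), 0.38 (SE 0.15) and 0.17 (SE 0.14), all positive. Whether they differ from the genes that were called was not tested.

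The levels came down from 18 h in small steps. From 18 h to 24 h, 8 of the 35 fell, against 0.867% of all genes, and 34 of 35 had a negative change (median -0.31 log2). The 8 were Nusap1, Top2a, Aurkb, Kif11, Ube2c, Ccna2, Kif23 and Cenpf. From 24 h to 30 h, 3 fell (Kif20a, Knstrn and Cenpf), against 0.118% of all genes, with a median of -0.17. The count of 8 was 4 without library 2 of 18 h or library 3 of 24 h, 17 without library 3 of 18 h and 2 without the 9 libraries numbered 2. The count of 3 was 1 without library 1 of 24 h or any 1 library of 30 h, and DESeq2 gave 5. A comparison of 30 h with 18 h was added after the values were seen. Of the 35, 22 fell, against 1.69% of all genes called down, and the median was -0.50 log2. Without the libraries numbered 2 the count was 11. Whether the level at 24 h lay off the midpoint of 18 h and 30 h, also added later, was called for none of the 35 by edgeR (7 at an unadjusted p under 0.05; 0.331% of all genes called), and the lowest adjusted p was that of Aurkb, 0.0558. With 1 library left out, up to 3 were called (without library 3 of 18 h).

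From 30 h to 36 h all 35 changes were positive (median 0.27 log2), but 1 was called up, Kif20a, against 0.134% of all genes, while 22 had an unadjusted p under 0.05. No member was called without any 1 library of 30 h or 36 h, and 3 were called by DESeq2 or without library 3 of 18 h. None of the 35 was called by edgeR at any of the 4 steps from 36 h on, where 0.575%, 0.126%, 0.221% and 0.0709% of all genes were called. At an unadjusted p under 0.05 there were 0, 0, 0 and 2 members at these steps.

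**Figure D3:**
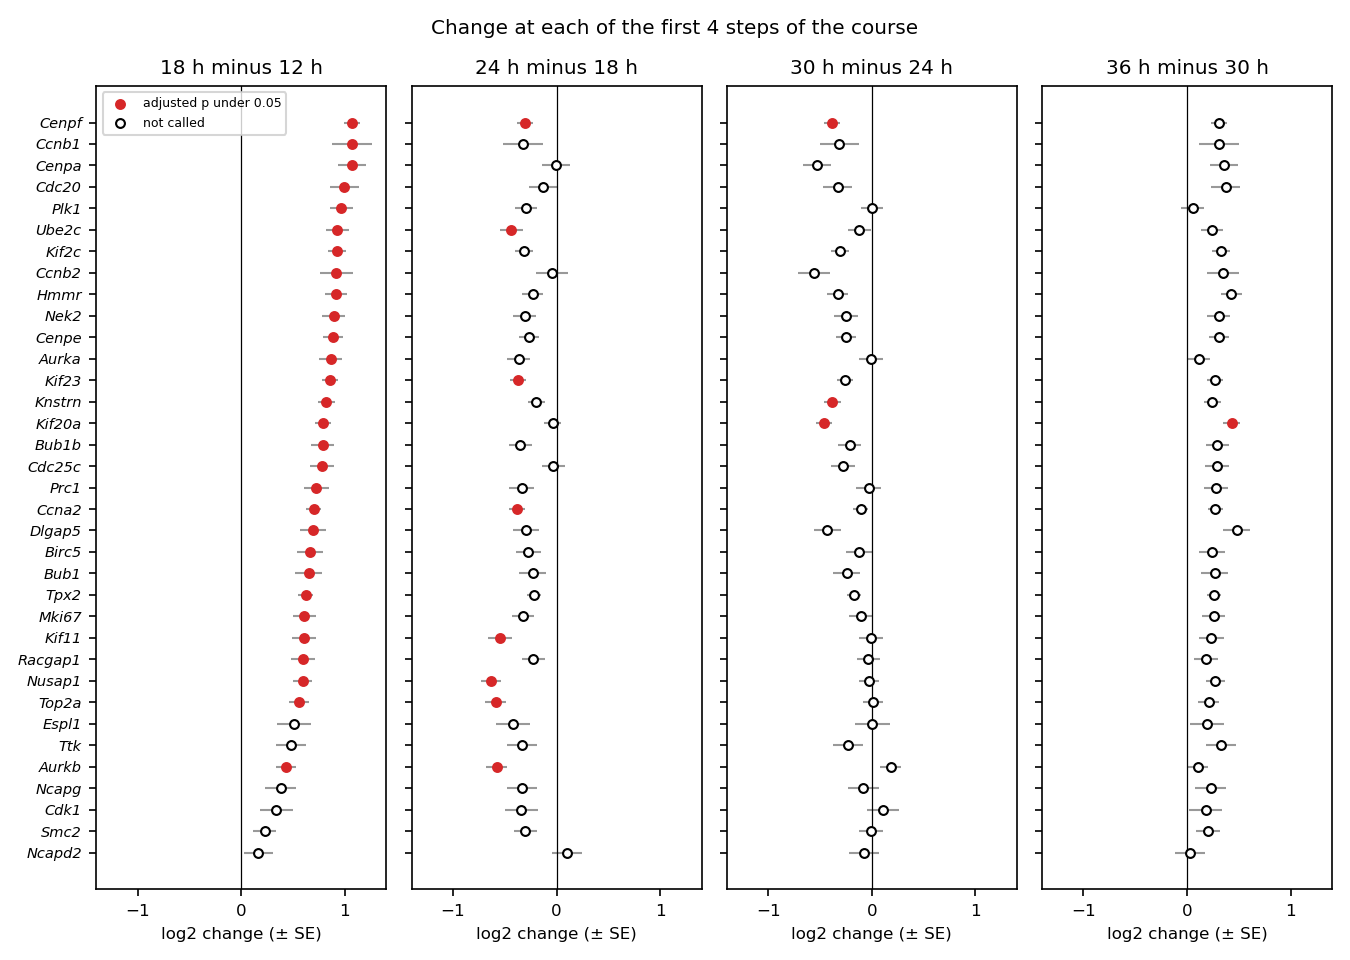
Fitted log2 change of each of the 35 genes (± SE, horizontal axis) at the first 4 steps of 6 h; filled red points have an adjusted p under 0.05. All points lie to the right of 0 from 12 h to 18 h and from 30 h to 36 h, and 34 and 30 lie to the left of 0 at the 2 steps between.

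Libraries with the same hour of a 24 h day allow a comparison free of phase. At 36 h, 25 of 35 were above 12 h, against 9.27% of all genes, with a median of 0.51 log2. At 42 h, 6 were below 18 h (Nusap1, Top2a, Cenpf, Kif23, Kif2c and Knstrn), against 2.32% of all genes. At 54 h, 7 were above 30 h (Ccna2, Cenpf, Kif2c, Tpx2, Knstrn, Kif20a and Kif23), against 1.04% of all genes, with a median of 0.31. The count of 6 was 3 without library 2 of 18 h and 16 without library 3 of 18 h. The count of 7 was 2 to 4 without any 1 library of 30 h or without library 1 or 2 of 54 h, 12 and 11 without library 2 or 3 of 18 h, and 11 by DESeq2, and without the libraries numbered 2 the counts were 2 and 0. Aurkb was above its 24 h level at 48 h (0.36 log2, adjusted p = 0.0392; 2.7% of all genes called up), a call lost without the filter on low counts, without any 1 library of 24 h and without library 1 or 2 of 48 h. Between 36 h and 60 h no member was called by edgeR (1 at an unadjusted p under 0.05, and 0.875% of all genes called). By the sign of the change alone, called or not, all 35 were above 12 h at 36 h. By the same measure 33 were below 18 h at 42 h and 34 above 30 h at 54 h. In the last 2 comparisons 29 and 28 members were not called.

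By 60 h, 25 members were above 12 h and none below, against 9.48% of all genes called up, with a median of 0.47 log2. The largest gains were those of Cenpa (1.01 log2, SE 0.14, adjusted p = 8.23e-06), Cdc20 (0.90, SE 0.14, adjusted p = 4.7e-05) and Cdc25c (0.79, SE 0.12, adjusted p = 2.32e-05). Nusap1 and Top2a were not called, with changes of -0.01 (SE 0.09) and 0.05 log2 (SE 0.10). All libraries come from the same cell line, and genes used as markers of other cell types moved over the same hours. At 60 h all 4 tested fibroblast markers (of 6, median 0.51 log2) were above 12 h. So were 4 of 5 tested smooth muscle markers (of 6, median 0.80). At 36 h, 3 of 4 and 4 of 5 were above 12 h. The summed level of the fibroblast markers was 7054 to 7182 CPM at 12 h and 8000 to 9388 CPM at 60 h, and that of the smooth muscle markers 3298 to 3675 CPM and 5079 to 5886 CPM. Of the 14 myoblast and reserve cell markers, 2 were above 12 h and 1 below at 60 h. Neither the part of unfused cells in the gains of the mitotic genes nor the relation of the other markers to these gains was tested. A linear trend over the 48 h, fitted beside a 24 h wave, was called upward in 14 members and downward in none, against 10.7% and 8.69% of all genes. This count moved with the libraries used: it was 0 without the 12 h libraries, 26 without the 18 h libraries, and 7 without any 1 of the 3 libraries at 12 h.

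The study is about circadian control, so a wave of 24 h was tested. None of the 35 was called as rhythmic by edgeR, against 7 of all 12687 genes (0.0552%). At an unadjusted p under 0.05 there were 28 of the 35 and 570 of all genes. The lowest p among members was that of Knstrn (1.64e-04, adjusted 0.26), and fitted swings from trough to peak ran from 0.15 (Ncapd2) to 0.60 log2 (Cenpa). DESeq2 called 2, Cdc25c and Knstrn. An alternation of collections (12, 24, 36, 48 and 60 h against 18, 30, 42 and 54 h) was called downward in 4 members, against 1.43% of all genes: Plk1, Aurkb, Ube2c and Kif23, with -0.25, -0.20, -0.21 and -0.17 log2. No member was left without the 9 libraries numbered 2, and 15 were called without library 3 of 18 h. The 12 h and 18 h libraries stand on opposite sides of that contrast.

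Libraries differed within a time point in a shared way. At 18 h library 3 was the lowest of 3 in 30 of 35 genes and library 2 the highest in 30. The median level of the 35, each gene taken relative to its mean over all libraries, was 0.29, 0.52 and 0.05 log2 in the 18 h libraries 1, 2 and 3, and at 12 h it lay between -0.54 and -0.39. Taken number by number, the median change from 12 h to 18 h was 0.73, 0.84 and 0.60 log2, and all 35 genes were higher at 18 h in each of the 3. The median change from 18 h to 30 h was -0.48, -0.69 and -0.28 log2. The count of members rising to 18 h was 28 to 31 with any 1 library left out. With a block for the replicate number it was 34. The block gave 23 falls from 18 h to 24 h in place of 8, and 10 from 24 h to 30 h in place of 3.

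Other genes of the pathway were compared as lists. Of 67 further mitosis genes, 45 rose from 12 h to 18 h and none fell, with a median of 0.55 log2, and 16 fell from 18 h to 24 h. Aspm, a spindle pole protein, went from a mean of 42.9 to 93.6 CPM (log2 1.13, SE 0.09, edgeR adjusted p = 2.53e-08). Gas2l3, which links actin to microtubules in cytokinesis, went from 14.6 to 35.3 CPM (1.27, SE 0.11, adjusted p = 7.62e-08). Psrc1, another spindle gene, rose by 0.38 and ended at 60 h below its 12 h level (-0.77, adjusted p = 1.18e-05). At 60 h, 22 of the 67 were above 12 h and 1 below, the latter being Psrc1.

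Genes of DNA replication went the other way. Of 40 S phase genes, 21 fell from 12 h to 18 h and none rose, against 2.3% of all genes called down, with a median of -0.41 log2. Mcm6 and Mcm5, subunits of the replicative helicase, went from means of 189 to 121 CPM (log2 -0.65, SE 0.06, edgeR adjusted p = 1.8e-07) and from 95.8 to 57.9 CPM (-0.73, SE 0.08, adjusted p = 2.26e-06). Pold1, the catalytic subunit of DNA polymerase delta, went from 29.8 to 20.1 CPM (-0.57, SE 0.08, adjusted p = 1.03e-04). At 60 h, 28 of the 40 were still below 12 h (median -0.44), against 6.54% of all genes, and none was above. Thus, between the first and the last time point, 25 of 35 mitotic genes were called up and 28 of 40 S phase genes down.

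**Figure D4:**
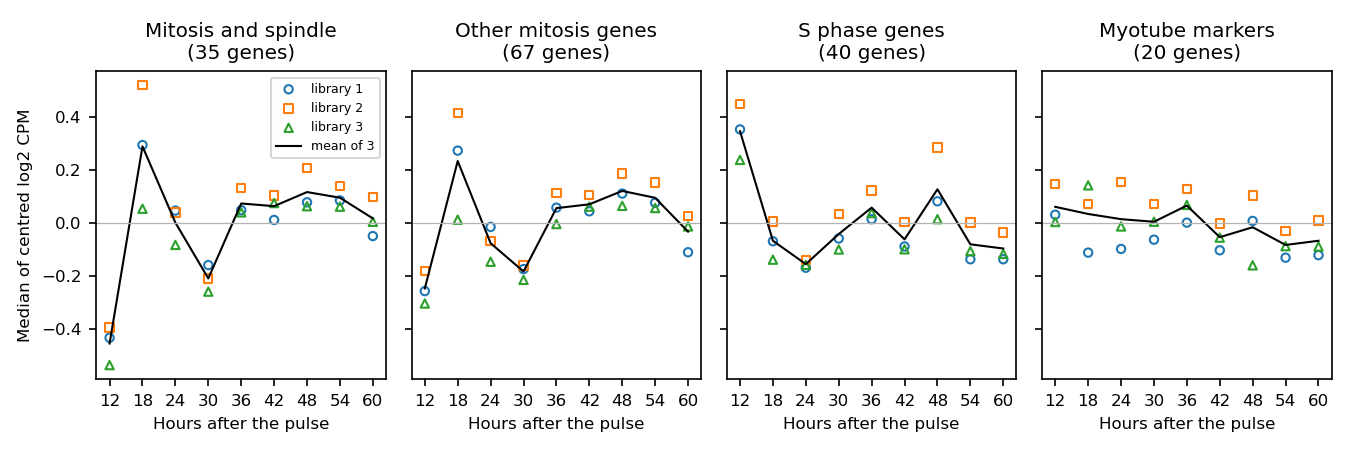
Median level of 4 gene lists in each library (log2 CPM of each gene minus its mean over all libraries, vertical axis) by hour; symbols are library numbers and the line joins the means of 3. The mitosis and spindle genes and the other mitosis genes go from their lowest at 12 h to their highest at 18 h, S phase genes are highest at 12 h, and the means of the myotube markers stay between -0.08 and 0.07.

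Regulators of mitotic transcription were counted beside all genes. Among 22 genes of the DREAM complex, the MYB and E2F families and their partners, none had a called step from 12 h to 18 h. At that step edgeR called 5.08% of all genes, and the lowest adjusted p of the 22 was 0.11 (4 at an unadjusted p under 0.05). None had a called change over the course, against 18.4% of all genes (lowest adjusted p 0.0597, Rbl1, and 4 at an unadjusted p under 0.05). Calls in other comparisons were named after their values were seen. E2f5 was above 12 h at 60 h (log2 0.35, adjusted p = 0.0219), against 9.48% of all genes called up. Rbl2 was below 12 h at 36 h (-0.18, adjusted p = 0.0374), where 16% of all genes were called in either direction. Rbl1 and Mybl2, which encodes B-MYB, were above 24 h at 48 h (0.40 and 0.61), against 2.7% of all genes called up. The linear trend was upward in Nfyc (0.23) and downward in E2f2 (-0.30), against 10.7% and 8.69% of all genes. Foxm1, also named after its value was seen, had a change of 0.61 log2 from 12 h to 18 h and an adjusted p of 0.159. Of 11 tested genes of cell cycle exit, 2 rose from 12 h to 18 h (Cdkn2d and Cdkn2c, which encode CDK inhibitors) and 1 fell (Gadd45a). At this step 2.78% of all genes were called up and 2.3% down. The myotube markers had no called member of 20 at this step and a median of -0.01 log2, with summed levels of 22042 to 22681 CPM at 12 h and 20230 to 24048 CPM at 18 h. Of 14 markers of myoblasts and unfused reserve cells, 2 rose (Id3 and Sdc4) and 1 fell (Cd34), with a median of 0.04 log2. Their summed level was 1043 to 1075 CPM at 12 h and 1082 to 1140 CPM at 18 h. The most abundant of them were Cdh15 and Sdc4, at 412 and 224 CPM on average over all libraries. At the same step 2 of 4 tested fibroblast markers rose (Pdgfra and Col3a1), and of 5 tested smooth muscle markers 1 rose (Lmod1) and 1 fell (Tagln). Neither the part of unfused cells in the rise of the mitotic genes nor the relation of the other markers to this rise was tested.

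Promoter sequences are shown because members that move together can be compared base by base at their starts. RefSeq's table (GRCm38.p6) held 29 of the 35; Aurkb, Ccna2, Cdc25c, Dlgap5, Kif20a and Tpx2 were not in it. In the 250 bases before the start, the CCAAT box (CCAAT, both strands) was found in 25 of 29 (86.2%, Wilson 95% interval 69.4 to 94.5%), in 40.9% of 9972 tested genes and in 37.5% of 27025 genes in all. The CHR letters (TTTGAA or TTCGAA, both strands) were found in 14 of 29 (48.3%, 31.4 to 65.6%), in 14.5% of tested genes and in 19.6% of all. With the 50 bases after the start added, 23 of 29 (79.3%) held CHR letters, against 16.3% of tested genes. E2F-like letters (TTCCCGC or TTGGCGC) were in 13.8% of members and 11.6% of tested genes, and the clock E-box CACGTG in 10.3% and 9.85%. Each motif was searched for on its own, so matches may overlap, and a match is a description, not a site in use.

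Below are the 140 bases before the start of 6 members, 5′ to 3′ on the strand of the gene, chosen after their values were seen: Cenpf, Ccnb2 and Hmmr for their CCAAT boxes, Top2a and Kif11 for CHR letters close before the start, and Knstrn, which has neither CCAAT nor CHR letters. Capitals mark CCAAT (or ATTGG), CHR letters and, in Knstrn, the E-box. The windows are chr1:189688087-189688226 (minus strand) for Cenpf, chr9:70421555-70421694 (minus) for Ccnb2, chr11:40733438-40733577 (minus) for Hmmr, chr11:99024190-99024329 (minus) for Top2a, chr19:37376242-37376381 (plus) for Kif11 and chr2:118813863-118814002 (plus) for Knstrn, all before the first exon.
Cenpf: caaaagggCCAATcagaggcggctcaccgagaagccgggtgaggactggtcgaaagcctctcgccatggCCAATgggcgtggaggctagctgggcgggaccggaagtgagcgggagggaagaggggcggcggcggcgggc
Ccnb2: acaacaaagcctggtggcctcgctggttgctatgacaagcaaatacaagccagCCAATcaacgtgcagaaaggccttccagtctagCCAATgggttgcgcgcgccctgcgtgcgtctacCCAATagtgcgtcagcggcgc
Hmmr: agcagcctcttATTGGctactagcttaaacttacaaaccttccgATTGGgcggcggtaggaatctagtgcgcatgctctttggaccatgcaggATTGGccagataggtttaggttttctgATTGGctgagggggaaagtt
Top2a: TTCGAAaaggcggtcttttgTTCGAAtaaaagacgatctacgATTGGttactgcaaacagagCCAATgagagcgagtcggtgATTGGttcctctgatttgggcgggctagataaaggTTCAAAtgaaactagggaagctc
Kif11: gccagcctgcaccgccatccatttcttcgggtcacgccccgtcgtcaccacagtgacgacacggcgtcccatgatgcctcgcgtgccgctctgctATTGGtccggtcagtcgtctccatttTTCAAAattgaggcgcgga
Knstrn: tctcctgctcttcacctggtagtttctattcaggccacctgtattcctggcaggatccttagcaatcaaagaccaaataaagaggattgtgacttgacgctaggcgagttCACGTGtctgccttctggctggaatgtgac

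Cenpf has 2 CCAAT boxes in its window, Ccnb2 has 3 and Hmmr 4, and none of these windows holds CHR letters. In all 3 genes CHR letters begin within the 50 bases after the start, and Ccnb2 has a further match upstream of the window. Top2a has 3 CCAAT boxes and 3 CHR matches, the last of which begins 23 bases before the start, and Kif11 has 1 of each, at 45 and 19 bases before it. Knstrn rose by 0.82 log2 with a single E-box, 30 bases before its start, and neither of the other 2 motifs. Birc5 and Nusap1, also called up from 12 h to 18 h, held none of the 3 motifs. Ttk and Espl1, not called at that step, held an E-box and CCAAT letters before the start. CHR letters lay before the start in Espl1 and after it in Ttk. Distances are from the start in RefSeq's promoter table. For Cenpf, Hmmr, Top2a and Knstrn this start differed from that of RefSeq's gene entry. Which letters fall before the start depends on the entry used. The relation of the motifs to the rise was not tested.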

How the data were processed

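The values, as deposited by the authors, are raw counts: whole numbers of reads for each of 20446 Ensembl genes, without normalization, in 27 libraries. Per the labels' protocols, ribosomal RNA was removed and libraries were stranded. Per the submitters' processing notes, the build was mm10 and the tools were Trim Galore 0.4.0, cutadapt 1.9.1 and featureCounts. Which aligner, annotation and strand setting were used is not given in the sources used here. GENCODE M21 (mm10) supplied the symbols and matched 20318 of the 20446 genes.

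Libraries were grouped by the hour and number of their labels. Depth was 15.2 to 26.6 M counts (median 20.9 M), TMM factors 0.979 to 1.03, and the biological coefficient of variation 11.8%. In every pair of libraries of a time point the counts differed by more than sampling noise (the smallest chi-square was 5.63 per degree of freedom), and each counted as 1 sample. filterByExpr with a minimum count of 10 kept 12687 genes and left out 7759. Tests were edgeR 4.0.16 quasi-likelihood F tests (R 4.3.3) over all 27 libraries, with p adjusted by Benjamini-Hochberg over the 12687 genes and a threshold of 0.05. Time was a factor for steps, 60 h against 12 h, pairs 24 h apart, alternation and any change. The trend (per 48 h) and the 24 h wave shared a second model. On counts simulated for 12687 genes with 25 genes per size, 44% and 76% of 1.5-fold and 2-fold changes at the 12 h to 18 h step were recovered (2 of 12487 unchanged genes called), 64% and 92% of trends (2), 72% and 92% of 24 h waves (3), and 92% and 100% of alternations (0). Each changed gene was simulated with a single clean shape, and the simulated libraries shared no deviations, unlike the libraries here. These shares may therefore overstate what was recovered in the data. CPM was computed with the TMM factors, and log2 CPM used a prior count of 2.

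The 35 members and the gene lists were chosen with earlier results of these data known, and so were the tests. By the rule for named genes, members called by a test were to be given in every library. All 27 values are printed for the 2 members of each role with the smallest p for any change, and for the other members the libraries of the hours that their results turn on. Of each list up to 3 genes with the smallest p were named. Of lists not described below, endothelial (1 of 5 tested) and immune markers (2 of 6) had none called from 12 h to 18 h or at 36 h or 60 h against 12 h, and core clock genes held 7 of 17 with a 24 h rhythm.

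Alternatives were DESeq2 1.42.0, median of ratios scaling, no filter, a filter at 1 CPM on average, a block for the replicate number, each library left out, the libraries numbered 2 left out, periods of 20 to 28 h, other trend terms, the 6 end libraries alone and fits without 12 h. Chosen after the values were seen were fits without 18 h and without 12 and 18 h, the comparison of 30 h with 18 h, that of 24 h with the mean of 18 h and 30 h, and a separate count for the first step. Replicate numbers were checked for pairing by the correlation of deviations between libraries of different hours. Over 108 pairs of the same number it ran from -0.056 to 0.692 (median 0.33), and 91 were over 0.1. Over 216 pairs of different numbers it ran from -0.65 to 0.45 (median -0.19), and 37 were over 0.1. Libraries of the same number were thus more alike, but no label says what a number stands for. The main fits therefore have no block, and fits with a block are given as an alternative. Promoters (250 bases before to 50 after the start) came from RefSeq, GRCm38.p6, the same assembly as mm10. Intervals cover counting error only.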

Additional observations from a re-analysis of the deposited data

How the results depend on the processing

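The count of members rising from 12 h to 18 h (29) was 34 with a replicate block, 27 without the libraries numbered 2 and 28 to 31 with 1 library left out. Any change (29) was called for 14 without the 12 h libraries, for 11 without 12 h and 18 h, for 34 with a replicate block and for 26 to 30 with 1 library left out. The linear trend (14 up) gave 0 without 12 h, 2 without 12 h and 18 h, 26 without 18 h, 3 with no 24 h terms, 19 with the block and 7 to 22 with 1 library left out (22 without library 2 of 18 h). The Cenpf trend turned to -0.00402 log2 without 12 h (adjusted p = 0.993). For the 24 h rhythm (0 called), DESeq2 gave 2, and 0 to 0 were called with 1 library left out. At 60 h against 12 h (25) the range was 20 to 25. Calls over the 8 neighbouring steps (41) came to 78 with the replicate block (45 up, 33 down) and 37 to 55 with 1 library left out. By step, the block gave 23 falls from 18 h to 24 h (8), 10 from 24 h to 30 h (3) and 11 gains from 30 h to 36 h (1), and the ranges with 1 library left out were 4 to 17, 1 to 4 and 0 to 3. Calls over the 5 pairs 24 h apart (39) came to 84 with the block (66 up, 18 down) and 34 to 55, with 18 falls from 18 h to 42 h (6), 24 gains from 30 h to 54 h (7) and 10 from 24 h to 48 h (1) under the block. Alternation (4) was 18 with the block, 0 without the libraries numbered 2 and 3 to 15 with 1 library left out. The fall from 18 h to 30 h (22) was 11 without the libraries numbered 2, 33 with the block and 15 to 29, and the test of 24 h against the mean of 18 h and 30 h (0) was 6 with the block and 0 to 3. The share of promoters with CHR letters (48.3%) was 79.3% with the 50 bases after the start. The cause of these moves was not tested. Every one of the 27 libraries but 1 correlated best with libraries of its own number, a hint from the data, not from the design. DESeq2 gave 5 for the falls from 24 h to 30 h (3), 3 for the gains from 30 h to 36 h (1) and 11 for the gains from 30 h to 54 h (7). The Aurkb gain from 24 h to 48 h was not called with no filter. DESeq2, the other scaling and the 2 filters moved no other count of members in the comparisons above by over 1.5 times. The falls from 18 h to 30 h and the test of 24 h against the mean of 18 h and 30 h were not run with these. Steps of under 1.5-fold are those that 3 libraries a time point would most often miss.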
